A study of Mus musculus with 22 samples.

Results

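The comparison described here is the change of the lipopolysaccharide (LPS) response in macrophages that lack both MK2 and MK3. It is the log2 difference between LPS and medium in MK2/3-/- bone marrow-derived macrophages (BMDM) minus the same difference in wild-type (wt) BMDM, and it rests on 14 of the 22 arrays of the series. The 14 arrays were 4 of wt BMDM in medium, 3 of wt BMDM with LPS, 3 of MK2/3-/- BMDM in medium and 4 of MK2/3-/- BMDM with LPS. All cells came from the bone marrow of male C57BL/6 mice, which were 12 to 13 weeks old for wt and 11 to 14 weeks old for MK2/3-/-. The bone marrow was grown with the growth factor M-CSF until the cells had become macrophages, and the cells then received 100 ng/ml LPS or medium alone for 360 min. LPS is a glycolipid in the outer membrane of certain bacteria that macrophages sense through TLR4. The remaining 8 arrays were of MK2-/- BMDM, 4 in medium and 4 with LPS. They are used below to compare the double with the single deletion, and they share in the estimate of the spread, 1 of them with 2927 outlier spots against 115 to 261 on the 14 arrays.

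MK2 and MK3 are closely related protein kinases that p38 MAPK phosphorylates and activates in cells exposed to LPS or stress. In macrophages they are best known for controlling the stability and translation of cytokine mRNAs, through RNA-binding proteins such as tristetraprolin, the product of Zfp36. They also keep p38 MAPK in a complex that stabilises it, so that cells without MK2 and MK3 hold less p38 protein.

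RNA was labelled with the dye Cy3 and hybridised to Agilent whole-genome arrays, 1 sample to an array, and every value below is a log2 normalised signal or a difference of such signals. The median processed signal of the 14 arrays lay between 32.7 and 103, and 61.7 to 76.4% of the spots were well above background. All arrays of a genotype shared 1 slide. A constant slide effect cancels in the difference of 2 responses, whereas genotype and slide cannot be told apart for a level alone. The median SD of a gene across arrays was 0.45 in MK2/3-/- BMDM with LPS and 0.25 to 0.33 in the other 3 groups. Replicate 4 of wt BMDM in medium stood apart, with a median of 9.05 over 36 cytokine and chemokine genes, against 6.46 to 7.36 on the other wt medium arrays and 5.96 to 6.31 on the MK2/3-/- medium arrays. A higher medium level makes the wt response smaller, and values without that array are given below where they matter.

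The gene Mapkapk2 was lower on the arrays labelled MK2/3-/-. Mapkapk2, which encodes MK2, read 12.07, 12.39, 10.77 and 12.39 on the wt medium arrays, 15.07, 14.28 and 15.33 on the wt LPS arrays, 8.48, 8.50 and 8.34 on the MK2/3-/- medium arrays and 10.92, 11.22, 10.86 and 11.08 on the MK2/3-/- LPS arrays. In medium and with LPS, the arrays of the genotypes did not overlap. The remaining transcript still rose with LPS, by 2.58 against 2.99 in wt BMDM, and the difference of the responses was -0.41 ± 0.44 (SE; adjusted p = 0.84). Whether the probe lies in the deleted part of the gene is not given in the sources used here.

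Of 22383 genes tested, 152 had a different LPS response in MK2/3-/- than in wt BMDM, which is 0.679% of the genes (limma, two-sided, adjusted p below 0.05 after Benjamini-Hochberg correction). The response was lower for 128 genes (0.572%) and higher for 24 genes (0.107%). At an unadjusted p below 0.05 the numbers were 1826 lower and 719 higher (11.4% together), and the median difference of all genes was -0.04. The response itself passed the test for 9423 genes (42.1%) in wt BMDM and for 10779 genes (48.2%) in MK2/3-/- BMDM. Most of the 152 genes were genes with a lower signal after LPS: 104 had a deeper fall in MK2/3-/- BMDM, with a median response of -1.61 in wt and -3.47 in MK2/3-/- BMDM. For 14 genes a positive response in wt BMDM became negative, with medians of 0.68 and -1.23, and for 10 genes the rise was weaker, with medians of 3.32 and 1.27. On the other side, 19 genes had a stronger rise, with medians of 1.24 and 3.33, 4 genes went from a negative to a positive response, and 1 gene, Rgs2, had a shallower fall. The genotypes lay further apart with LPS than in medium for 149 of the 152 genes. No such count was made over all genes, and for these levels genotype and slide cannot be told apart, so that it marks no trait of the 152. These classes describe the sign and size of both responses, and a response within a class need not have passed a test of its own. In wt BMDM it did so for 91 of the 104 genes of the deeper fall, 8 of the 14 that turned, 10 of the 10 with a weaker rise and 13 of the 19 with a stronger rise.

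**Figure D1:**
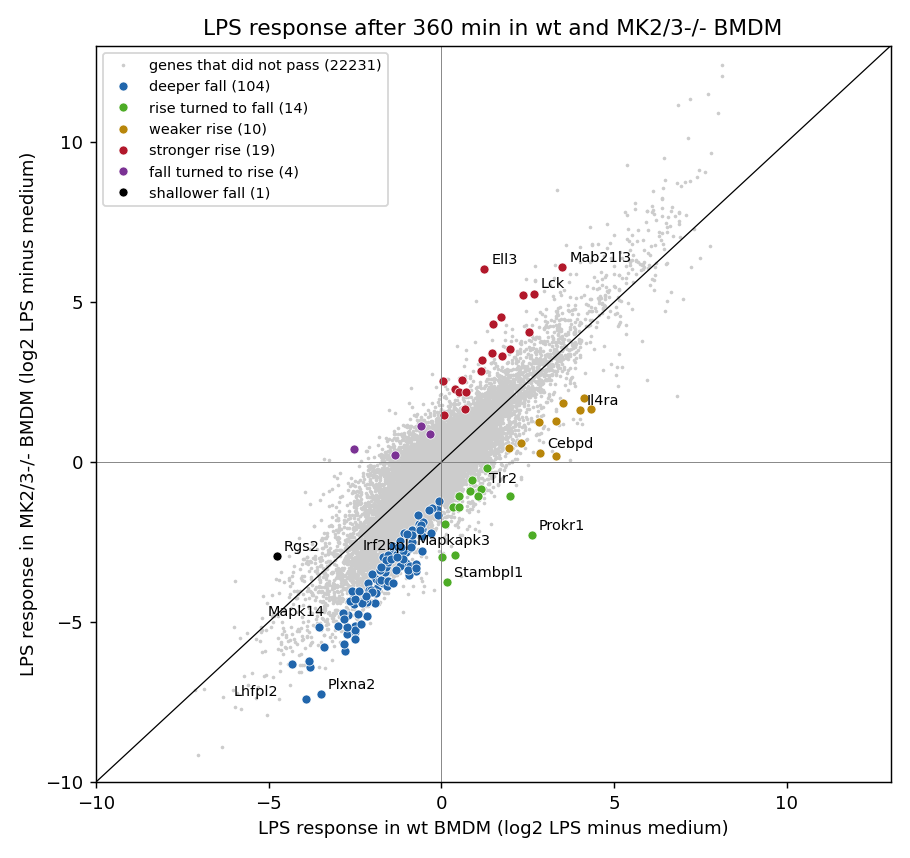
LPS response (log2 LPS minus medium) of each gene in wt BMDM (x axis) and in MK2/3-/- BMDM (y axis), with the line of equal responses. Coloured points are the 152 genes whose response differed, most of them below the line at the lower left, where 104 genes had a deeper fall in MK2/3-/- BMDM.

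The largest loss of induction was that of Prokr1 (NM_021381), a G protein-coupled receptor for prokineticins. Its signal was 3.59, 4.06, 4.24 and 3.87 on the wt medium arrays, 6.31, 7.49 and 5.87 on the wt LPS arrays, 4.63, 3.95 and 4.26 on the MK2/3-/- medium arrays and 1.99, 2.02, 2.01 and 1.99 on the MK2/3-/- LPS arrays. The 3 wt LPS arrays were the highest of the 14, and all 4 MK2/3-/- LPS arrays were not well above background. In medium, 1 of 4 wt and 2 of 3 MK2/3-/- arrays were well above background, so that both responses start near it. Prokr1 thus rose by 2.62 in wt BMDM and read 2.27 below medium in MK2/3-/- BMDM, a difference of -4.89 ± 0.73 (adjusted p = 0.0168). Counted against the background of the MK2/3-/- LPS arrays, the response was at least 9.21-fold lower in MK2/3-/- than in wt BMDM with the processing as reported. Under the other settings the log2 difference ranged from -5.23 to -1.34, so that its size is uncertain. Adgrg5 (NM_001145972), an adhesion G protein-coupled receptor, passed the test as well (adjusted p = 0.0168). Its signal was not well above background in wt BMDM with either treatment or in MK2/3-/- BMDM with LPS and read 5.58, 4.93 and 4.75 in MK2/3-/- BMDM in medium, so that no size can be given for its responses.

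Stambpl1 (NM_029682) encodes a deubiquitinase that cleaves ubiquitin chains linked through lysine 63. It read 10.19, 9.91, 10.30 and 10.59 in wt medium, 11.13, 10.17 and 9.97 in wt LPS, 10.58, 10.12 and 10.56 in MK2/3-/- medium and 5.86, 6.20, 6.77 and 7.85 in MK2/3-/- LPS. Only the MK2/3-/- LPS arrays were low, and they did not overlap with any other group. The response was 0.17 in wt BMDM (adjusted p = 0.773) and -3.75 in MK2/3-/- BMDM, a difference of -3.92 ± 0.57 (adjusted p = 0.0168) or 15.2-fold. Irf2bpl (NM_145836), whose product resembles the interferon regulatory factor 2-binding proteins, had the same shape, with a response of 0.03 in wt BMDM and -2.98 in MK2/3-/- BMDM and an 8.02-fold lower response (SE 0.63 on the log2 scale, adjusted p = 0.0374). Its 4 MK2/3-/- LPS arrays read 7.18, 8.27, 9.64 and 9.81, all below the lowest of the other 10 arrays, and a second probe of the gene gave a difference of -2.32 (adjusted p = 0.00782).

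Tlr2 (NM_011905), the receptor for bacterial lipoproteins, read 13.41, 14.17, 13.90 and 14.10 in wt medium, 15.10, 14.70 and 15.36 in wt LPS, 14.07, 14.01 and 13.85 in MK2/3-/- medium and 12.69, 13.08, 13.34 and 13.48 in MK2/3-/- LPS. The wt LPS arrays were above all others, and the MK2/3-/- LPS arrays were below those of MK2/3-/- medium. The response was 1.16 in wt and -0.83 in MK2/3-/- BMDM, a difference of -1.99 ± 0.32 (adjusted p = 0.0173). Cebpd (NM_007679), a C/EBP transcription factor that takes part in sustaining the response to TLR4, read 13.65, 13.99, 13.15 and 13.15 in wt medium, 16.10, 16.40 and 16.56 in wt LPS, 13.98, 14.16 and 13.33 in MK2/3-/- medium and 13.40, 14.64, 14.01 and 14.37 in MK2/3-/- LPS. In MK2/3-/- BMDM the LPS and medium arrays overlapped, with a response of 0.28 against 2.87 in wt BMDM and a difference of -2.59 ± 0.46 (adjusted p = 0.0229). Il4ra (NM_001008700), the chain of the interleukin-4 receptor that binds the cytokine, rose by 4.01 in wt BMDM, from 9.11, 9.07, 9.15 and 9.82 to 14.24, 13.01 and 12.63. In MK2/3-/- BMDM it rose by 1.63, from 8.74, 8.77 and 8.70 to 9.93, 10.69, 10.56 and 10.27, so that the LPS arrays of both genotypes did not overlap. The difference was -2.38 ± 0.45 (adjusted p = 0.0284), but a second probe of Il4ra gave -0.07 (adjusted p = 0.993).

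Further regulators, chosen after their values were seen, had a weaker rise or a response of the opposite sign. The rise of Sbno2, a transcriptional corepressor that acts as part of the anti-inflammatory response, was 2.29 in wt and 0.58 in MK2/3-/- BMDM (difference -1.71 ± 0.35, adjusted p = 0.0352). Calcrl, the receptor chain for calcitonin gene-related peptide and adrenomedullin, rose by 2.82 and 1.25 (difference -1.57 ± 0.35, adjusted p = 0.0427). Responses that turned from positive to negative were those of Trp53, which encodes p53 (0.84 and -0.90), Usf1, an E-box-binding factor (0.35 and -1.42), the adaptor Sh2b2 (1.08 and -1.06), the small GTPase Rrad (0.51 and -1.05) and Ptges2, a prostaglandin E synthase (0.90 and -0.55). Their differences ranged from -2.14 for Sh2b2 to -1.45 for Ptges2. Usp9y, a deubiquitinase gene of the Y chromosome, passed (adjusted p = 0.0458) but was not well above background in wt BMDM in medium or in MK2/3-/- BMDM with LPS, and its response was at least 1.09-fold lower.

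**Figure D2:**
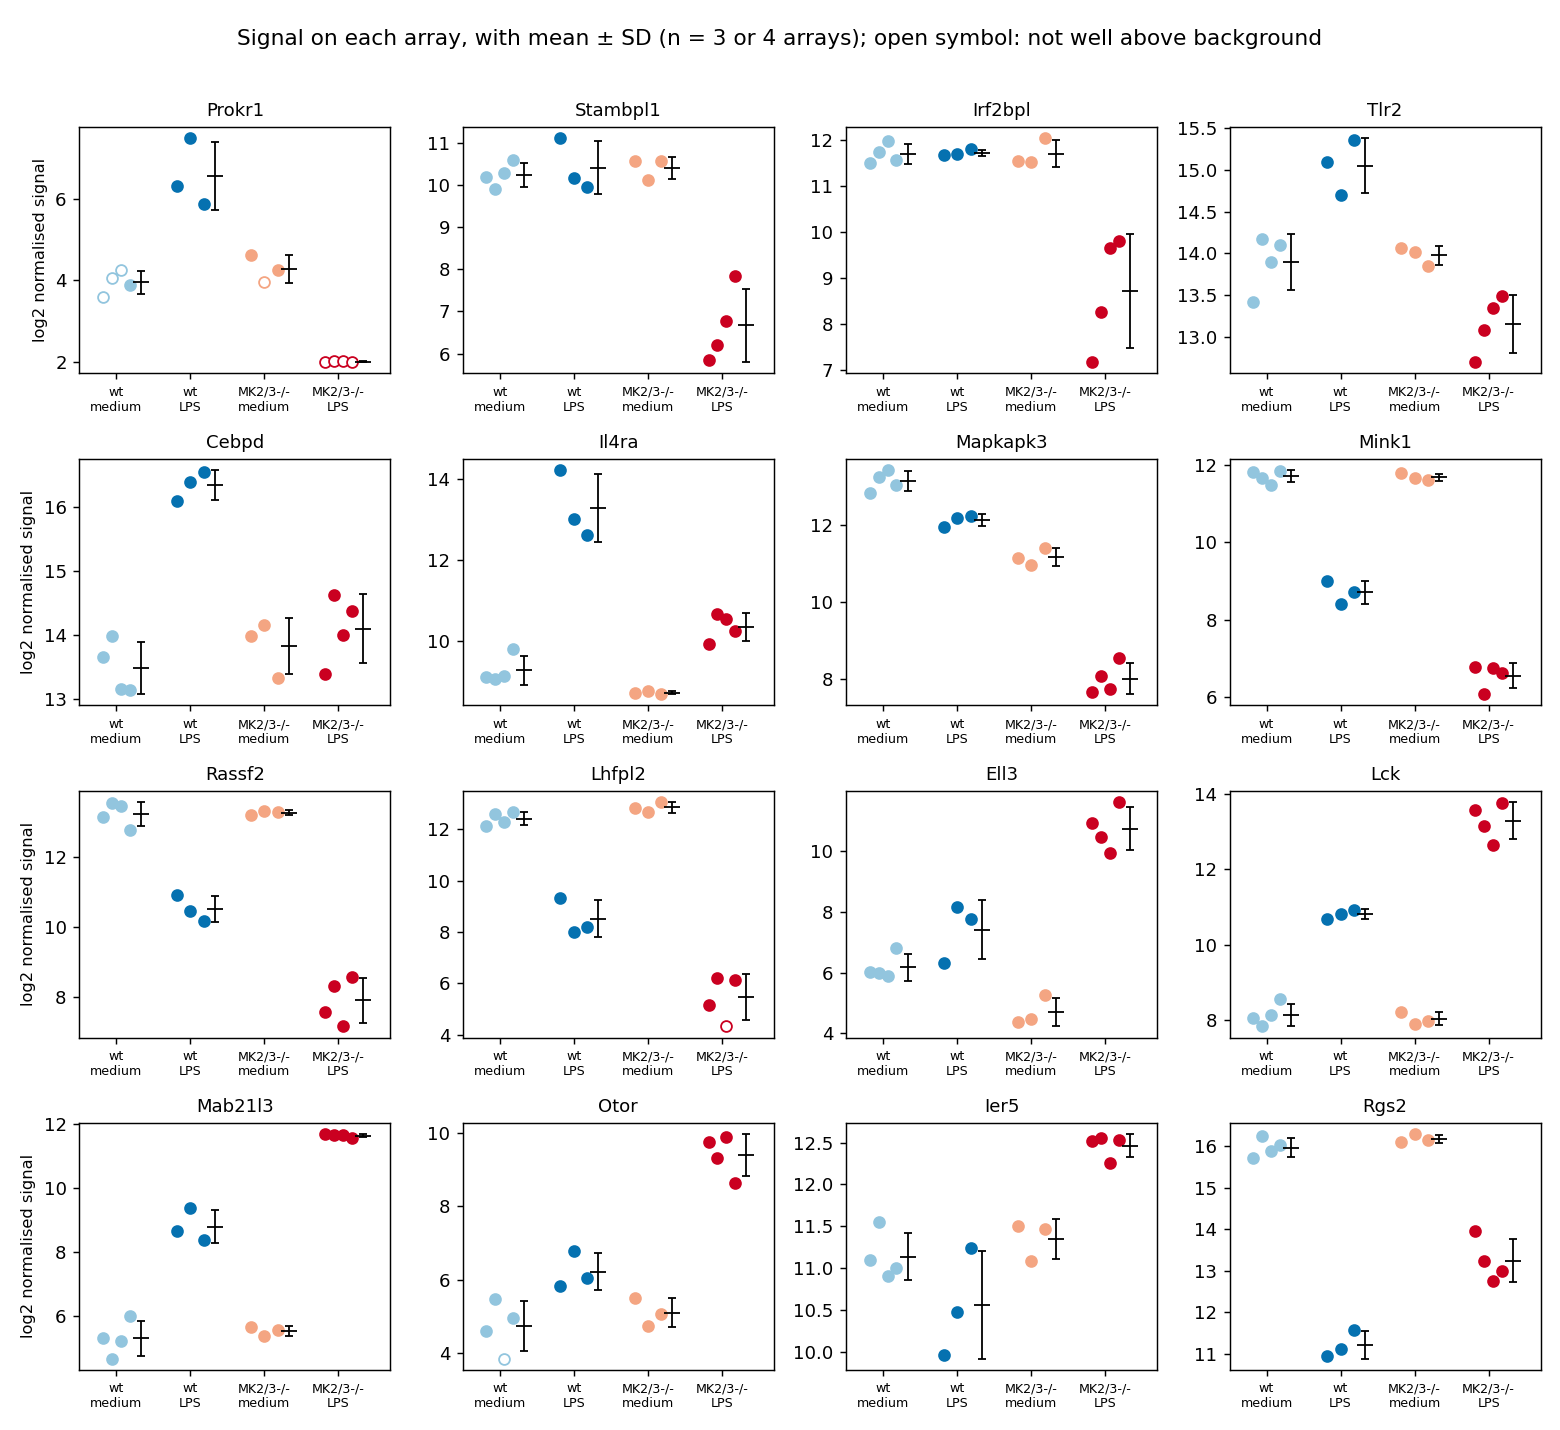
log2 normalised signal of 16 genes on each array of the 4 groups (points), with the mean and SD of 3 or 4 arrays beside them and open symbols for arrays not well above background. In each panel the MK2/3-/- LPS arrays (dark red) lie apart from the wt LPS arrays (dark blue), while the medium arrays of both genotypes lie closer together.

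The 250 bases upstream of the annotated start of 5 of these genes, from RefSeq on mouse build GRCm38.p6, are printed 5′ to 3′ in the direction of the gene, because the first 3 had a lower and the other 2 a higher LPS response in MK2/3-/- BMDM. Capitals mark matches, on either strand, to an NF-kB-type motif (GGGANNNNCC), the E-box (CACGTG) and the Sp1-type motif (GGGCGG). Where matches to different motifs touch or overlap, 1 run of capitals covers both. Stambpl1 and Lck have further annotated starts that are not shown.
Prokr1, chr6:87590744-87590993, minus strand: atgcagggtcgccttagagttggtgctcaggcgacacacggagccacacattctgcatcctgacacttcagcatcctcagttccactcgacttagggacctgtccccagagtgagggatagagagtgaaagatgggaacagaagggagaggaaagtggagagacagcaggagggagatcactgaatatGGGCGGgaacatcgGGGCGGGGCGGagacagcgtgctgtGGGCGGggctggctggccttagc
Stambpl1, chr19:34191979-34192228, plus strand: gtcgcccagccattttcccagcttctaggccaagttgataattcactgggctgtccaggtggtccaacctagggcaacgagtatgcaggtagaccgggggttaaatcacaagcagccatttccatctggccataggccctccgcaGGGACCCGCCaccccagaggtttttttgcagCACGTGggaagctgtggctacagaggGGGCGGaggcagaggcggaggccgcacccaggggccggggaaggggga
Tlr2, chr3:83841609-83841858, minus strand: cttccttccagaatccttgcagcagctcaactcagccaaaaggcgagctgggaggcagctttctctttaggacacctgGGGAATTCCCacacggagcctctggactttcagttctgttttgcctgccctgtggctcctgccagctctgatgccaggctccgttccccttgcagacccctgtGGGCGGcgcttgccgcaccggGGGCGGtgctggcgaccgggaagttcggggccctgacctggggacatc
Lck, chr4:129558373-129558622, minus strand: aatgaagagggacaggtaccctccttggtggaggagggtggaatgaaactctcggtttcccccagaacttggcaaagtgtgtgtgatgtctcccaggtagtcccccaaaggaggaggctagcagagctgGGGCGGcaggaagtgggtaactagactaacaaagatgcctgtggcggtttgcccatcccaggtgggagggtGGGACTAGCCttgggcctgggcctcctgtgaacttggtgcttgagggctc
Ell3, chr2:121442602-121442851, minus strand: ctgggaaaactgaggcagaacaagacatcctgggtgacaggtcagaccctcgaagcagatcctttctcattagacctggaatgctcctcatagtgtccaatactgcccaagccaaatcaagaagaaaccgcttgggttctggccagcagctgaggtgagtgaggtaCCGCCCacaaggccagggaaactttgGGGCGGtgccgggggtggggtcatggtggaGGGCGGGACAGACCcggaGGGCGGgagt

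The window of Tlr2 holds the palindromic match GGGAATTCCC at position -172 from the start, and that of Prokr1 holds 4 matches to GGGCGG. In all, 17985 such windows of 14566 tested genes were searched, of which 20.7% held the NF-kB-type motif and 47.4% the Sp1-type motif. Among 31 windows of 20 genes whose rise was weaker or turned, the shares were 19.4% and 61.3%, and among 20 windows of 14 genes with a stronger rise, 30.0% and 55.0%. Windows of the deeper fall (110 windows of 86 genes) gave 22.7% and 58.2%. The AP-1 motif TGANTCA was in 5.8% of all windows and in 0 of the 20 windows of the stronger rise. STAT-type motifs (GAS, TTCNNNGAA) were in 6.51% of all windows and in 5 of the 31 windows (16.1%) of the weaker or turned rise. The interferon-type motif GAAANNGAAA was in 2.92% of all windows and in 2 of these 31. Matches of CRE (TGACGTCA), the E-box and TATAAA were found in 2.16%, 7.19% and 9.97% of all windows. A match is a run of letters and no measured binding, and the shares were not tested.

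Genes with a deeper fall included the second targeted gene. Mapkapk3 (NM_178907), which encodes MK3, read 12.83, 13.24, 13.42 and 13.04 in wt medium, 11.94, 12.18 and 12.23 in wt LPS, 11.15, 10.94 and 11.40 in MK2/3-/- medium and 7.65, 8.08, 7.73 and 8.55 in MK2/3-/- LPS. The 4 groups did not overlap, and the MK2/3-/- arrays were the lower ones with each treatment. The transcript that the probe still detects in MK2/3-/- BMDM fell by 3.16 with LPS, against 1.02 in wt BMDM, a difference of -2.14 ± 0.34 (adjusted p = 0.0168). Mapk14 (NM_001168514), which encodes p38α, the kinase upstream of MK2 and MK3, fell by 2.82 in wt BMDM, from 14.07, 14.02, 14.04 and 13.83 to 11.61, 10.84 and 11.06. In MK2/3-/- BMDM it fell by 4.91, from 13.75, 14.01 and 13.91 to 7.92, 8.82, 9.22 and 9.95, with no overlap between the LPS arrays of both genotypes. The difference was -2.09 ± 0.48 (adjusted p = 0.048), and a second probe of Mapk14 gave -0.83 (adjusted p = 0.439).

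Kinases and adaptors of other pathways fell more deeply as well. Mink1 (NM_001045964), a kinase of the Ste20 family that acts upstream of JNK and p38, read 11.82, 11.67, 11.49 and 11.84 in wt medium, 9.00, 8.40 and 8.72 in wt LPS, 11.78, 11.66 and 11.60 in MK2/3-/- medium and 6.77, 6.07, 6.74 and 6.62 in MK2/3-/- LPS. The medium arrays of both genotypes overlapped and the LPS arrays did not. It fell by 3.00 in wt and by 5.13 in MK2/3-/- BMDM, a difference of -2.13 ± 0.34 (adjusted p = 0.0168). Rassf2 (NM_175445), a Ras association domain protein, went from 13.15, 13.55, 13.47 and 12.79 to 10.93, 10.45 and 10.18 in wt BMDM and from 13.20, 13.34 and 13.30 to 7.56, 8.31, 7.15 and 8.56 in MK2/3-/- BMDM. The LPS arrays of the genotypes were again apart, and the difference was -2.67 ± 0.46 (adjusted p = 0.0229). The deepest fall of the 104 genes was that of Lhfpl2 (NM_172589), with a response of -3.91 in wt and -7.41 in MK2/3-/- BMDM and a difference of -3.49 ± 0.67 (adjusted p = 0.031). For Plxna2 (NM_008882), a semaphorin co-receptor, the responses were -3.49 and -7.25 and the difference -3.76 ± 0.74 (adjusted p = 0.0319). Plxna2 was not well above background in MK2/3-/- BMDM with LPS. Counted against that background, its response was at least 8.35-fold lower than in wt BMDM with the processing as reported. Under the other settings its log2 difference ranged from -4.39 to -1.57, so that its size is uncertain. Other large differences were those of Gpr146, an orphan G protein-coupled receptor (-3.12), Zfp61 (-3.02), the Rac activator Dock5 (-2.81) and the uncharacterised 2510002D24Rik (-2.73). The signal of 2510002D24Rik was well above background on 1 of 4 MK2/3-/- LPS arrays, and its difference ranged from -3.10 to -0.71 under the other settings. The mismatch repair gene Pms1 was not well above background in MK2/3-/- BMDM with LPS. With the processing as reported its response was at least 3.00-fold lower, and under the other settings its log2 difference ranged from -3.36 to -0.61. NM_001100416, which has no symbol in the sources used here, gave -2.48 ± 0.39 (adjusted p = 0.0168).

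Further genes with a deeper fall were chosen after their values were seen, and no count over other genes of like function stands behind them. Tnrc6b and Tnrc6a, which encode partners of the Argonaute proteins, Drosha, which cuts primary microRNA transcripts, and Cnot3, a subunit of the CCR4-NOT deadenylase, had differences of -1.91, -1.33, -0.97 and -1.15. Tnrc6b read 8.97, 8.83, 8.86 and 8.63 in wt medium, 6.51, 6.16 and 6.19 in wt LPS, 8.80, 8.57 and 8.94 in MK2/3-/- medium and 4.26, 3.78, 4.63 and 4.65 in MK2/3-/- LPS. Its LPS arrays did not overlap between the genotypes, whereas its medium arrays did (adjusted p = 0.0171). Aars2 and Cars2, which charge mitochondrial transfer RNAs with alanine and cysteine (-1.39 and -1.51), the mitochondrial elongation factor gene Tsfm (-1.56) and Mrps2 (-1.36), a mitochondrial ribosomal protein gene, also passed. Mrps2 was the 1 of 77 tested Mrpl and Mrps genes that did (1.3%, against 0.664% of all genes with a symbol). However, a second probe of Mrps2 gave 0.24 (adjusted p = 0.909). Others were Vav1, a Rac activator (-1.51), Mavs, the adaptor of RNA sensors on mitochondria (-1.91), Nfatc3, a transcription factor controlled by calcineurin (-1.93), and Tnfaip8l2, an inhibitor of inflammatory signalling (-2.12). Among 356 tested genes with a Zfp symbol, which mostly encode zinc finger proteins, 8 had a lower and 1 a higher response. The lower ones were 2.25%, against 0.664% of all genes with a symbol. The directions of Zfp61 and Zfp318 were opposite when the probe with the highest LPS induction stood for each gene.

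Ell3 (NM_145973), a transcription elongation factor of the ELL family, had the largest gain. It read 6.01, 5.98, 5.87 and 6.82 in wt medium, 6.31, 8.17 and 7.76 in wt LPS, 4.38, 4.48 and 5.25 in MK2/3-/- medium and 10.93, 10.47, 9.93 and 11.61 in MK2/3-/- LPS. In wt BMDM the LPS and medium arrays overlapped, whereas the MK2/3-/- LPS arrays were the highest and the MK2/3-/- medium arrays the lowest of the 14. The response was 1.24 in wt and 6.03 in MK2/3-/- BMDM, a difference of 4.79 ± 0.92 (adjusted p = 0.031) or 27.6-fold. Mab21l3 (NM_172295), a member of the Mab-21 family, rose by 3.49 in wt BMDM, from 5.32, 4.68, 5.22 and 6.01 to 8.65, 9.37 and 8.37. In MK2/3-/- BMDM it rose by 6.10, from 5.68, 5.38 and 5.57 to 11.68, 11.65, 11.65 and 11.57. Its LPS arrays did not overlap between the genotypes, with a difference of 2.60 ± 0.45 (adjusted p = 0.0229).

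Lck (NM_010693) encodes a Src family tyrosine kinase that is best known from the T cell receptor. Its signal was 8.04, 7.83, 8.12 and 8.54 in wt medium, 10.68, 10.82 and 10.93 in wt LPS, 8.22, 7.90 and 7.98 in MK2/3-/- medium and 13.58, 13.16, 12.66 and 13.77 in MK2/3-/- LPS. The medium arrays overlapped, and each MK2/3-/- LPS array was above all wt LPS arrays. The rise was 2.68 in wt and 5.26 in MK2/3-/- BMDM, a difference of 2.58 ± 0.38 (adjusted p = 0.0168). Of 5 T cell markers, 4 were tested and none had a different response. The log2 of their summed signal was 10.89 to 11.44 in wt BMDM with LPS and 10.83 to 11.93 in MK2/3-/- BMDM with LPS, and these ranges overlapped.

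Otor (NM_020595), which encodes a small secreted protein first found in the inner ear, rose by 1.50 in wt and 4.30 in MK2/3-/- BMDM (difference 2.81 ± 0.55, adjusted p = 0.0319). Its LPS arrays read 5.83, 6.80 and 6.04 in wt and 9.75, 9.32, 9.90 and 8.63 in MK2/3-/- BMDM and did not overlap. Armcx6, an armadillo repeat gene of the X chromosome, gave 2.81 ± 0.58 (adjusted p = 0.0357), and its second probe 3.42. Rab43, a GTPase of vesicle transport, gave 1.67 ± 0.30 (adjusted p = 0.0229), and its second probe 2.23. Ppp1r15a, which encodes the stress-induced phosphatase subunit GADD34, rose by 1.98 and 3.53 (difference 1.55 ± 0.33, adjusted p = 0.04), and Cop1, a ubiquitin ligase, by 0.69 and 1.66. Nabp1, which binds single-stranded DNA, Mob3b, a kinase adaptor, Gramd3 and Epop, a partner of Polycomb complexes, had differences of 1.98, 1.94, 1.89 and 1.68, and Dnajc7, a co-chaperone, one of 1.40. The immediate early gene Ier5 had responses of -0.58 in wt and 1.12 in MK2/3-/- BMDM (difference 1.69 ± 0.35, adjusted p = 0.0357). Rgs2 (NM_009061), which switches off Gq proteins, fell from 15.71, 16.25, 15.89 and 16.04 to 10.94, 11.12 and 11.57 in wt BMDM and from 16.10, 16.29 and 16.17 to 13.97, 13.24, 12.77 and 12.99 in MK2/3-/- BMDM. It stayed higher on every MK2/3-/- LPS array than on any wt LPS array, with a difference of 1.82 ± 0.40 (adjusted p = 0.0431).

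None of the 18 inflammatory cytokines tested passed. At an unadjusted p below 0.05, 5 were higher and 1 was lower, beside 719 higher and 1826 lower of all 22383 genes, and their median difference was 0.42 beside -0.04 over all genes. The response to LPS itself was large, with a median of 6.29 in wt and 6.01 in MK2/3-/- BMDM, and 17 of 18 members rose in each genotype. Il6 read 8.52, 6.41, 10.02 and 13.36 in wt medium, 17.74, 17.52 and 17.81 in wt LPS, 6.55, 5.16 and 6.13 in MK2/3-/- medium and 18.08, 17.92, 17.98 and 18.06 in MK2/3-/- LPS. Its LPS arrays differed by 0.32 between the means of the genotypes, while its medium arrays spread widely in wt BMDM, with replicate 4 the highest. The difference of the Il6 responses was 3.95 ± 1.33 (adjusted p = 0.193), and 2.69 without wt medium replicate 4. Il1a gave 4.28 ± 1.18 (adjusted p = 0.0939) and 3.25 without that array, and Il12a gave 3.19 ± 0.77 (adjusted p = 0.0573). Il1a was not well above background on any MK2/3-/- medium array, and its LPS means were 14.61 in wt and 14.93 in MK2/3-/- BMDM. Il12a was not well above background on any medium array of either genotype. Its difference thus rests on the LPS levels, for which genotype and slide cannot be told apart. Neither size is firm. Il10, the main anti-inflammatory cytokine of macrophages, read 7.05, 7.15, 7.68 and 8.40 in wt medium, 13.51, 14.28 and 14.49 in wt LPS, 6.30, 7.33 and 6.63 in MK2/3-/- medium and 10.64, 11.76, 12.20 and 12.48 in MK2/3-/- LPS. The LPS arrays of MK2/3-/- BMDM were below those of wt BMDM, and the difference of the responses was -1.50 ± 0.67 (adjusted p = 0.394). For Tnf it was 0.42 ± 0.67 (adjusted p = 0.914) and for Ifnb1 -1.03 ± 1.05 (adjusted p = 0.821). Il1a, Il12a, Il10 and Ifnb1 were chosen after their values were seen.

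None of 18 chemokines passed. At an unadjusted p below 0.05, 3 were higher, beside 719 of all 22383 genes. Their median was 0.09, and -0.19 without wt medium replicate 4. The chemokine Cxcl9, an interferon-γ-induced ligand of CXCR3, read 6.25, 5.76, 8.05 and 11.15 in wt medium, 14.67, 15.43 and 14.86 in wt LPS, 6.32, 5.58 and 5.29 in MK2/3-/- medium and 17.19, 17.39, 16.78 and 16.94 in MK2/3-/- LPS. Its MK2/3-/- LPS arrays were above all wt LPS arrays. The difference was 4.16 ± 1.22 (adjusted p = 0.117) with the brighter probe and 3.79 with a second probe, which passed (adjusted p = 0.04 over all genes). Wt medium replicate 4 was the highest wt medium array for Cxcl9, which enlarges neither rise but lowers that of wt BMDM. Under the other settings the difference ranged from 2.25 to 4.84, and the second probe was not fitted without that array. None of 28 interferon-stimulated genes passed, also at an unadjusted p below 0.05, and 23 of them lay above 0 with a median of 0.41, or 0.11 without wt medium replicate 4. Among 29 inflammatory transcription factors only Cebpd passed, where 0.679% of all genes did. Its relative Cebpb gave -1.55 ± 0.36 (adjusted p = 0.0513), and the nuclear receptor gene Nr4a2 gave 2.14 ± 0.71 (adjusted p = 0.187). Feedback inhibitors (16 tested, median 0.08, and -0.29 without wt medium replicate 4), the LPS receptor and its adaptors (21 tested, median 0.03) and ERK and JNK kinases (12 tested, median 0.01) had no member that passed. Members at an unadjusted p below 0.05 were 1, 3 and 1, beside 11.4% of all genes.

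**Figure D3:**
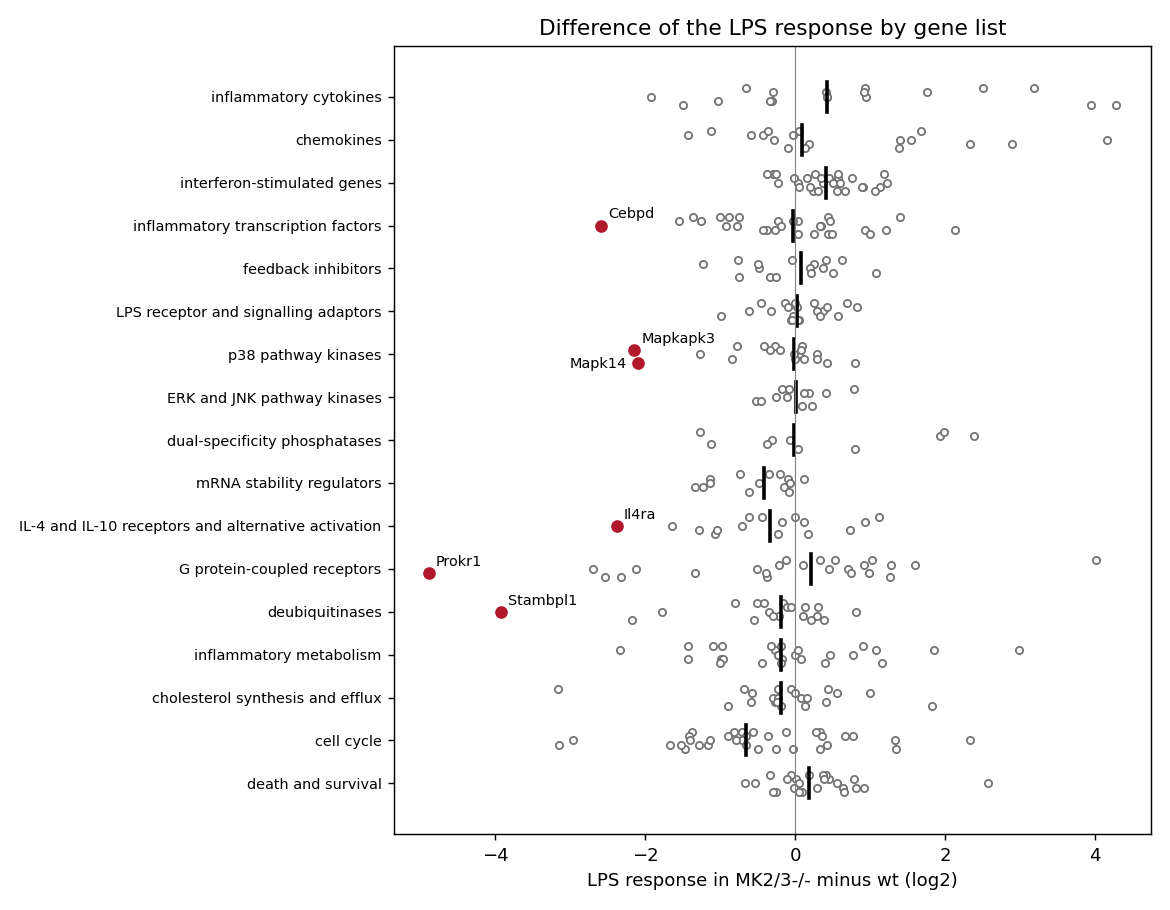
Difference of the LPS response (log2, MK2/3-/- minus wt) of each member of 17 gene lists, with filled points for members that passed the test and a bar at the list's median. Apart from a few named genes, the members of most lists spread around 0.

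In the p38 pathway list, 2 of 19 kinases passed, Mapkapk3 and Mapk14, both lower (0.572% of all genes), and the median was -0.02. Mapkapk3 is itself one of the deleted genes. Tab1, which binds and activates TAK1, gave -1.27 ± 0.33 (adjusted p = 0.0731), and Mknk2, an eIF4E kinase, gave 0.80 ± 0.27 (adjusted p = 0.2). Of 10 dual-specificity phosphatases, which inactivate MAP kinases, none passed (median -0.02). At an unadjusted p below 0.05, 3 were higher and 2 lower, beside 719 higher and 1826 lower of all 22383 genes. Dusp1 gave -1.27 (adjusted p = 0.206). Regulators of mRNA stability, the field in which MK2 is best known, had no member that passed among 14, although 13 of them lay at or below 0 and 5 were lower at an unadjusted p below 0.05, beside 1826 of all 22383 genes (median -0.41). Cnot3, Tnrc6a and Tnrc6b are not members of that list. Zfp36 gave -1.13 (adjusted p = 0.379), Zfp36l2 gave -1.23 (adjusted p = 0.0883), and Tia1, a translational repressor, gave -1.34 (adjusted p = 0.206).

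The receptor and enzyme lists each held 1 gene that passed, beside 0.679% of all genes, although the lists do not hold every gene of their kind. Il4ra was the one among 16 genes of the IL-4 and IL-10 receptors and alternative activation (median -0.34), and Prokr1 the one among 24 listed G protein-coupled receptors (median 0.22, and -0.14 with scaling to the 75th percentile). Adgrg5, Gpr146 and Calcrl, which also passed, are not on that list. Receptors that missed the threshold were P2ry13, a receptor for ADP (4.02 ± 1.07, adjusted p = 0.0811), and S1pr1, a receptor for sphingosine 1-phosphate (-2.69 ± 0.69, adjusted p = 0.072). Stambpl1 was the one of 20 listed deubiquitinases (median -0.19), which do not include Usp9y, Plxna2 the one of 20 semaphorins, plexins and neuropilins (median 0.25) and Ell3 the one of 14 transcription elongation factors (median -0.08). Il4ra was also the one of 11 tested genes, of 12 in the list of RT-qPCR targets, to pass. Most of that list was picked with these arrays in view, so that it is no independent evidence of a direction, and its median was 0.13, or -0.76 with scaling to the 75th percentile.

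Metabolic and cell biological lists had no member that passed. They were inflammatory metabolism (27 tested, median -0.19), cholesterol synthesis and efflux (21, -0.18), antigen presentation and co-stimulation (22, 0.10), phagocytic and scavenger receptors (19, -0.10), actin, adhesion and migration (30, 0.13) and death and survival (25, 0.18). At an unadjusted p below 0.05 they had 4, 3, 2, 0, 4 and 3 members, beside 11.4% of all genes. Pfkfb3, which drives glycolysis, rose by 5.05 in wt and 2.72 in MK2/3-/- BMDM (difference -2.33 ± 0.54, adjusted p = 0.0513). Ptgs2, the inducible cyclooxygenase, gave 2.99 ± 1.07 (adjusted p = 0.232), and the cholesterol exporter gene Abca1 gave -3.16 ± 0.86 (adjusted p = 0.0877). Of 34 cell cycle genes none passed (3 higher and 4 lower at an unadjusted p below 0.05, beside 719 and 1826 of all 22383 genes). Their median was the lowest of the pathway lists at -0.65, and -0.26 with scaling to the 75th percentile. In wt BMDM 19 of them fell with LPS and in MK2/3-/- BMDM 25, and Mcm2, a subunit of the replicative helicase, gave -3.16 ± 1.22 (adjusted p = 0.281).

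The cells carried the markers of macrophages. The log2 of the summed signal of 7 macrophage markers was 19.08 to 19.32 in wt medium, at most 18.52 in wt LPS, 19.16 to 19.39 in MK2/3-/- medium and 18.32 to 18.45 in MK2/3-/- LPS, and no marker had a different response. For neutrophil markers (7 tested) the sum was 12.84 to 13.59 in wt LPS and 12.06 to 13.77 in MK2/3-/- LPS. S100a8, a calcium-binding protein of neutrophils and activated monocytes, gave -3.67 ± 1.14 (adjusted p = 0.145). Dendritic cell (5), B cell (5), NK cell (3), mast cell and basophil (2), erythroid (2), fibroblast (4) and endothelial (3) markers had no member that passed either, nor at an unadjusted p below 0.05 apart from 2 dendritic cell markers, with medians between -1.01 for NK cell and 0.33 for dendritic cell markers. The summed fibroblast markers varied most between arrays of 1 group, from 9.41 to 15.53 in MK2/3-/- medium. The part of these cells in the results was not tested, and in bulk RNA fewer cells of a type and less RNA per cell cannot be told apart.

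In MK2-/- BMDM the median response of each class of these genes lay between those of the other genotypes. The median response of the genes with a deeper fall was -1.61 in wt, -2.66 in MK2-/- and -3.47 in MK2/3-/- BMDM, and that of the genes with a stronger rise was 1.24, 2.26 and 3.33. For the weaker rise the medians were 3.32, 2.43 and 1.27, and for the genes that turned 0.68, 0.01 and -1.23. The genes were chosen by their wt and MK2/3-/- responses, which puts those values apart by construction. A genotype that had no part in the choice tends to fall between them, so that its middle place is no result of its own. Single genes that lay between were not counted. Between MK2-/- and wt BMDM, 0 genes passed the test in limma, and 1685 (7.53%) did so at an unadjusted p below 0.05. The test between MK2/3-/- and MK2-/- BMDM uses the same MK2/3-/- arrays by which the 152 genes were chosen. An overlap is thus favoured by construction and is no separate evidence. In that test 15 genes passed (0.067%), of which 7 were among the 152. Lck was one of them: its rise was 2.75 in MK2-/- BMDM, beside 2.68 in wt and 5.26 in MK2/3-/- BMDM, and the difference between the double and the single deletion was 2.50 (adjusted p = 0.0137). Others were Mapkapk3, with a response of -0.55 in MK2-/- BMDM and a difference of -2.61 (adjusted p = 0.00415) and Otor with 3.23 (adjusted p = 0.0322). For Prokr1 and Stambpl1 the MK2-/- response was 0.47 and -1.83, between those of the other genotypes, and the difference between the deletions did not pass (adjusted p = 0.228 and 0.279).

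**Figure D4:**
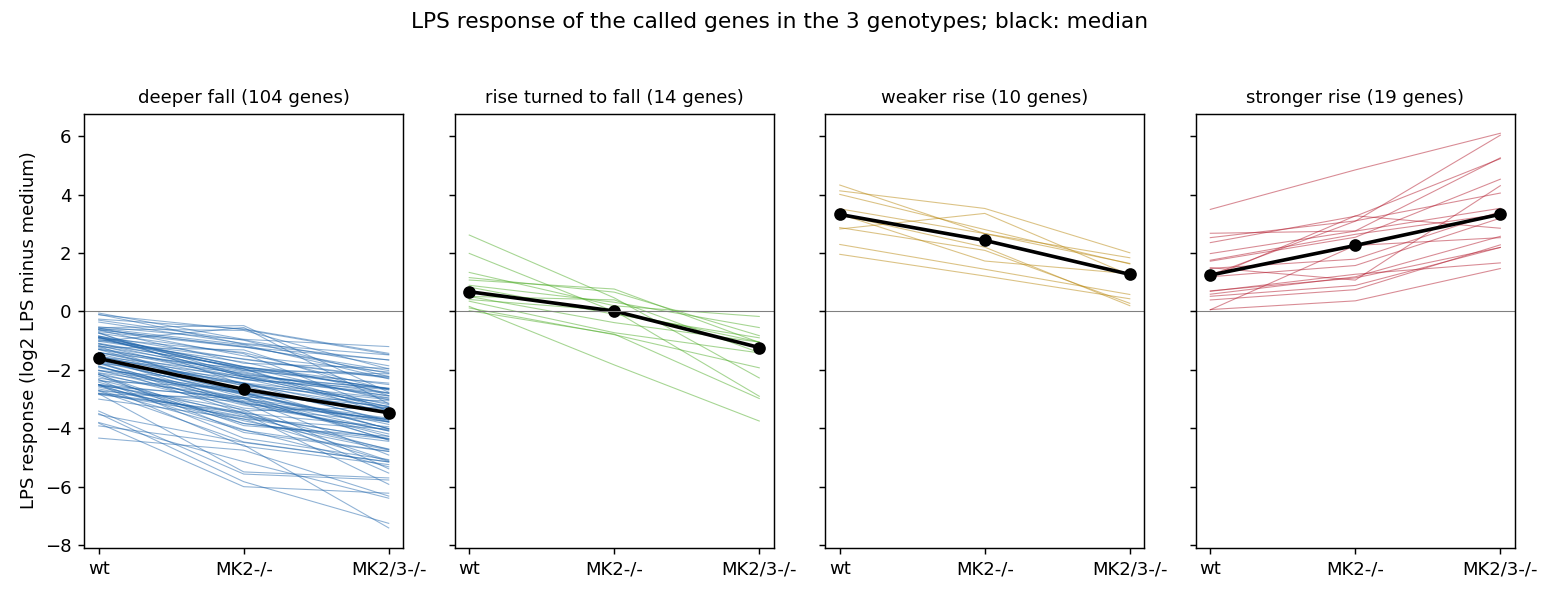
LPS response (log2 LPS minus medium) of the genes of 4 classes in wt, MK2-/- and MK2/3-/- BMDM, with 1 thin line a gene and the class median in black. The medians of MK2-/- BMDM, at -2.66, 0.01, 2.43 and 2.26, lie between those of wt and MK2/3-/- BMDM, by which the genes were chosen.

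The direction of all 152 differences was kept with scaling to the 75th percentile and with the authors' own value table, but the calls were not. That table holds the same arrays and is quantile normalised as well, so that it is a weak check. A fit of the 14 arrays alone leaves the differences as they are by construction and changes only the estimate of the spread. With the 75th percentile 20 of the 152 genes passed, among them 5 of the 104 with a deeper fall, 7 of the 14 that turned and 6 of the 10 with a weaker rise. In the fit of the 14 arrays 10 passed, and without wt medium replicate 4 it was 46. In each of the 14 fits that left out 1 array, 7 genes passed: Prokr1, Stambpl1, Adgrg5, Mapkapk3, Mink1, Lck and NM_001100416. Among these, Prokr1, Stambpl1, Mapkapk3, Lck and Adgrg5 also passed with the 75th percentile. Of 53 other probes of 46 of the genes, 43 had the same sign and 12 passed.

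**Figure D5:**
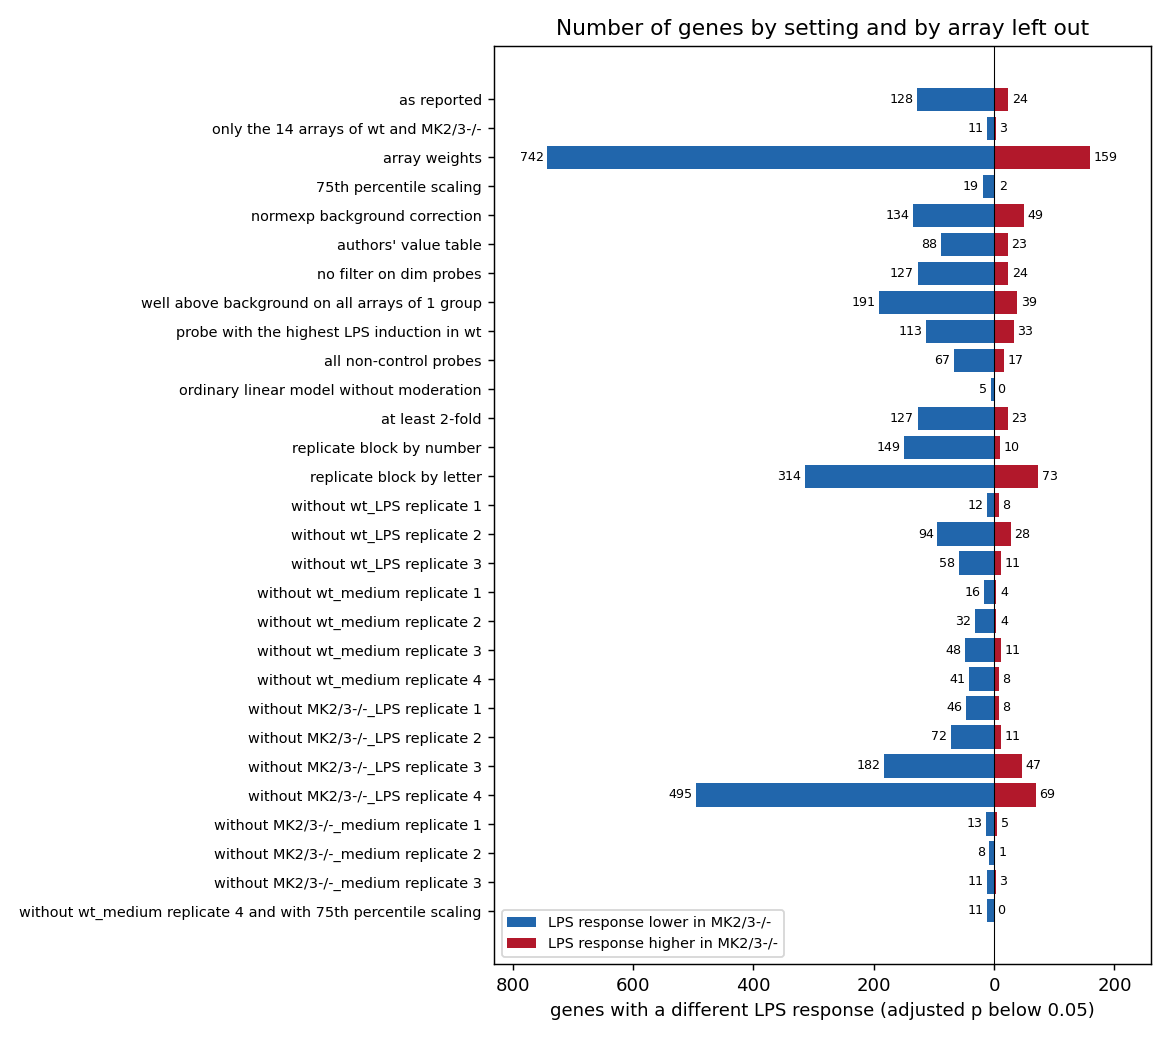
Number of genes with a lower (blue, left) and a higher (red, right) LPS response in MK2/3-/- than in wt BMDM, as reported and under each other setting or with 1 array left out. The number lies between 5 with an ordinary linear model and 901 with array weights, and lower responses are the more frequent ones in every setting.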

How the data were processed

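The authors hybridised Cy3-labelled RNA to Agilent 1-colour arrays and deposited the scanner output of Agilent Feature Extraction 11.0.1.1. The deposited intensity values used here are the processed signals, which the software had background-corrected. A deposited value table holds log2 values that the authors had quantile normalised and baseline-transformed to gene medians, per the methods. Its column medians lay between -0.07 and 0.08, and its columns correlated with the normalised scanner signals, centred probe by probe, with r from 0.993 to 0.999 over 55681 probes. The median difference of the genes with a deeper fall was -1.88 in that table and -1.90 here, so that scale and direction were the same. Both are quantile normalised. The median was -1.29 with scaling to the 75th percentile and -1.19 with normexp background correction, so that the size depended on the processing. Per the file headers the array design was annotated on build mm9, and no array coordinates are printed. The methods state independent experiments for the replicates.

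Control spots and outlier-flagged spots were left out. Signals of all 22 arrays were quantile normalised (limma 3.58.1, R 4.3.3) and put on the log2 scale. Of 55681 probes, the 28103 that had a RefSeq or GenBank accession and read well above background on 3 arrays or more entered the analysis, and the brightest probe stood for each gene, giving 22383 genes, 18375 of them named through RefSeq tables. Limma fitted a mean for each of 6 groups and tested the contrast of responses with moderated statistics, Benjamini-Hochberg adjustment and a threshold of 0.05. The fit was tested on simulated data, in which genes were given a known difference of 1, 2, 3 or 4 on the log2 scale. It recovered 10, 52, 78 and 86% of them. A list in which no member passed can thus hold differences that were missed. The number of arrays limits the precision. Where all arrays of a group were not well above background, the difference of the responses is a bound against the lowest signal well above background.

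Named genes were the 12 lowest and 12 highest called, those called in every fit without 1 array, the called members and up to 3 bright other members of each list, and the targeted genes. Other names were chosen after their values were seen, as the text says for groups. Members and lists were chosen with earlier results of these data known. Alternatives were other scaling, background correction (normexp on median signals with an offset of 50, since the mean signal was not used here), filters, probes, array sets, weights, blocks and each array left out. Promoter windows were matched by symbol in RefSeq tables of another build (GRCm38.p6).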

Additional observations from a re-analysis of the deposited data

Results flagged for a closer look

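The LPS response differed between MK2/3-/- and wt BMDM for 152 genes by the test of the difference itself. Between MK2/3-/- and MK2-/- BMDM it differed, among the named genes, for Otor (3.23), Mapkapk3 (-2.61), Lck (2.50) and Adgrg5 (-2.93, a value that rests on signals near background).

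Among 62 groups of 4 arrays of the genes looked at, 5 held 1 array far from the others, where chance gives about 1 in 20. In MK2/3-/- BMDM with LPS, replicate 4 read 2.73 for Adgrg5 against 1.99 to 2.02 on the other arrays and 3.77 for Pms1 against 1.99 to 2.02, and replicate 3 read 12.26 for Ier5 against 12.51 to 12.55. In wt medium, replicate 4 read 6.82 for Ell3 against 5.87 to 6.01 and 9.82 for Il4ra against 9.07 to 9.15. Replicate 4 of wt medium is also the array with the high cytokine signal.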

How the results depend on the processing

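The number of genes with a different LPS response in MK2/3-/- and wt BMDM (152) was 14 with the 14 arrays alone, 901 with array weights, 21 with scaling to the 75th percentile, 230 with a filter on 1 whole group, 84 over all non-control probes, 5 with an ordinary linear model, 387 with the replicate block by letter and 11 without wt medium replicate 4 and with the 75th percentile, a setting chosen after seeing the data. With 1 of the 14 arrays left out it ranged from 9 (MK2/3-/- medium replicate 2) to 564 (MK2/3-/- LPS replicate 4). It was 183 with normexp, of which 26.8% were higher, against 15.8% as reported, 111 with the authors' table, 146 with the probe of the highest induction and 159 with the replicate block by number. Between MK2/3-/- and MK2-/- BMDM (15 genes) it was 93 with array weights, 8 with the authors' table, 9 over all probes, 0 with the replicate block by number, 25 with the block by letter, 5 without wt medium replicate 4 and with the 75th percentile, and 1 to 15 with 1 wt or MK2/3-/- array left out. No MK2-/- array was left out. The LPS response passed for 16187 genes in wt and 18708 in MK2/3-/- BMDM over all probes, and for 6241 in wt BMDM at 2-fold or more. With 1 of the 14 arrays left out it passed for 7589 to 9797 and 9395 to 10906 genes. With the 75th percentile the median response of all genes was 0.30 in wt and 0.29 in MK2/3-/- BMDM, against -0.04 and 0.01 as reported, and 60.5% and 54.1% of the called responses were higher, against 44.2% in wt as reported.

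Same-numbered samples did not deviate together in every pair (correlation over 0.1 in 2 of 3 pairs in wt, from -0.03 to 0.36, in 2 of 4 in MK2-/-, from -0.09 to 0.30, and in 3 of 3 in MK2/3-/-, from 0.17 to 0.30), so that the numbers were not taken to pair the samples. Pairs with the same letter in the deposited names gave 0.09 to 0.36 in wt, -0.09 to 0.30 in MK2-/- and 0.18 to 0.42 in MK2/3-/- BMDM. They were over 0.1 in 2 of 3, 2 of 4 and 3 of 3 pairs. Whether the letters pair the samples could not be told, and the main fit used no pairing. The causes of these changes were not tested, apart from the smaller number of arrays or larger number of tests that a setting brings by construction. With the probe of the highest LPS induction in wt, another probe stood for Zfp61, Zfp318, Sirt4, Polk and Trp53inp1, and their differences became 1.00, -0.93, 0.97, 0.78 and 0.49. Of 71 called genes looked at singly, 66 kept their sign in every setting, and of 82 others 60 did. Spots near background limit the differences of dim genes, and groups of 3 or 4 arrays limit all of them.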
